A study of Sus scrofa with 21 samples.

Results

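The question here was whether the gap between infarcted and control pig hearts was wider, narrower or turned round on day 28 of life than on day 7, and whether it was the infarcted or the control hearts that had moved. It was put to 11 of the 21 hearts sequenced, 1 RNA library per pig. The infarcted pigs, labelled MI for myocardial infarction, had a permanent tie of the left descending coronary artery on postnatal day 1, and their tissue was taken from the border of the ischemic area on day 7 (3 pigs) or day 28 (2 pigs). The control pigs are called naive in the titles, whereas the treatment protocol describes age-matched animals that had the operation without the tie; their tissue came from the matching region on day 7 (3 pigs) or day 28 (3 pigs). No allele, strain or drug was named for any group, all pigs were hand-fed from birth, and the labels used here name neither sex, litter nor library batch. The other 10 libraries, from hearts of days 1, 3 and 14, entered the gene filter, the scaling and the estimate of the spread, but no comparison. The measure is an interaction on the log2 scale, the MI minus naive difference on day 28 less the same difference on day 7, which equals the change of the MI hearts between the days less the change of the naive hearts. With 2 MI hearts on day 28, every value below leans on that pair.

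The heart of a newborn pig can replace lost muscle for only the first days of life, after which its cardiomyocytes leave the cell cycle and an infarct heals as a scar. The border of an infarct holds surviving muscle beside tissue in which macrophages clear debris, fibroblasts lay down collagen, and stressed cells switch on immediate early genes, which need no new protein for their induction. Between the first and the fourth week a normal heart also matures, so that only a comparison with age-matched hearts separates healing from growth.

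The 11 libraries held 37002909 to 92831231 counts each, with the naive day 7 hearts lowest (37002909 to 48321350) and the MI day 7 hearts highest (75071994 to 92831231). Levels are given as CPM, the usual depth-scaled count of a gene, adjusted by edgeR's TMM factors. Cardiac muscle markers were present throughout, TNNT2 at 3461 to 7999 CPM and MYH7 at 17667 to 43225 CPM, while TNNI3, the adult cardiac troponin I, was listed at 0 in all 11. The 2 MI day 28 hearts differed from each other: summed over 6 macrophage markers replicate 2 stood at 2798 CPM and replicate 1 at 245 CPM, and summed over 3 adipocyte markers replicate 1 stood at 126 CPM and replicate 2 at 1.27 CPM. In the other 9 hearts these sums ran from 53.6 to 367 CPM and from 0.460 to 1.16 CPM. The MI day 7 replicate 3 also stood apart, with a mean of 0.84 log2 CPM over 34 genes of G2 and mitosis against 4.08 and 4.55 in the other MI day 7 hearts. Both that library and MI day 28 replicate 2, with naive day 28 replicate 2, belonged to a set of 4 libraries in the series in which ENSSSCG00000035520, a gene without a symbol, lay below 100 CPM, and no naive day 7 library belonged to it. In bulk tissue, fewer cells of a type and less RNA per cell cannot be told apart.

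Of 15359 genes tested, 2 (0.013%) passed an adjusted p of 0.05 in the interaction, 1 with a higher (0.00651%) and 1 with a lower value (0.00651%) (edgeR's quasi-likelihood test, Benjamini-Hochberg over all genes). The higher one was ANPEP, the cell-surface alanyl aminopeptidase also known as CD13, and the lower one was ENSSSCG00000035617, to which neither the deposited table nor the reference gives a name. At an unadjusted p under 0.05 there were 2924 genes (19%), 1491 higher (9.71%) and 1433 lower (9.33%). At an adjusted p under 0.10 there were 187 (1.22%), 128 higher (0.833%) and 59 lower (0.384%). By sign alone, 7238 of the 15359 genes had an interaction above 0 and 8121 below. With DESeq2's size factors in place of TMM the unadjusted split was 1760 higher and 1062 lower. The count moved with single libraries, to 528 without MI day 28 replicate 1 and to 179 without replicate 2, where the lone MI heart is assumed to vary like the other groups, and to 10 without MI day 7 replicate 3 and 13 without naive day 28 replicate 1. It was 1 in the 6 fits that each left out MI day 7 replicate 1 or 2, naive day 28 replicate 2 or 3, or naive day 7 replicate 1 or 2. Without the set of low ENSSSCG00000035520 it was 367, and with a term for that set 1.

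ANPEP stood at 11.5 and 12.9 CPM in the MI day 28 hearts. In the naive day 28 hearts it was at 0.795, 0.762 and 0.339 CPM, in the MI day 7 hearts at 0.860, 0.381 and 0.990 CPM, and in the naive day 7 hearts at 1.97, 2.45 and 0.685 CPM. Both MI day 28 hearts thus lay above all the other 9, whose groups overlapped. The interaction was 5.47 ± 0.83 (log2 ± SE; edgeR adjusted p = 0.0372), made of a rise of 4.04 in the MI hearts (adjusted p = 0.0257) and of -1.43 in the naive hearts, which did not pass (adjusted p = 0.594). It passed in 12 of 19 alternative fits, with values of 4.92 to 5.91. The 3 MI day 14 hearts, outside this comparison, held 2.89, 6.09 and 1.28 CPM, and the naive day 14 hearts 1.38, 1.12 and 1.10 CPM.

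The unnamed ENSSSCG00000035617 crossed over. Its level was 62.4, 33.6 and 50.2 CPM in the MI day 7 hearts against 8.87, 9.67 and 13.7 CPM in the naive day 7 hearts. On day 28 the order was the opposite, 5.44 and 14.5 CPM in the MI hearts against 43.5, 57.8 and 50.0 CPM in the naive ones. MI and naive libraries overlapped on neither day. The interaction was -4.52 ± 0.57 (edgeR adjusted p = 0.00767), and it passed in each of the 19 alternative fits, with a highest adjusted p of 0.0471. In this gene both arms contributed: the MI hearts fell by 2.29 (adjusted p = 0.0257), and the naive change was 2.23 (adjusted p = 0.0760). The naive hearts of other ages were nearer to the naive day 28 level, at 56.9 and 34.5 CPM on day 1, 27.3 and 56.0 CPM on day 3, and 29.6, 44.2 and 57.2 CPM on day 14. The MI day 14 hearts were at 14.0, 15.2 and 15.4 CPM, near the MI day 28 level.

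**Figure D1:**
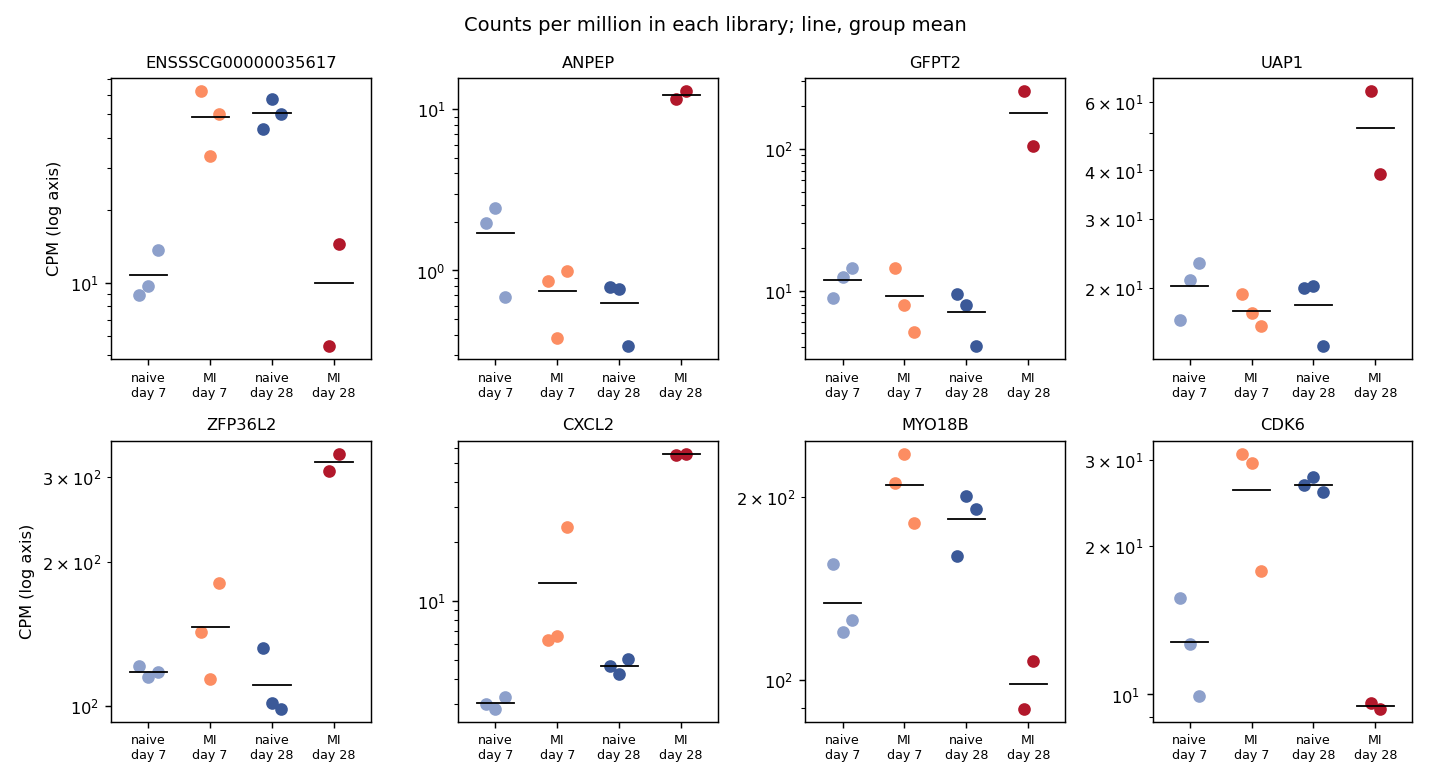
CPM on log axes for 8 genes in the naive and MI hearts of days 7 and 28, 1 point per library, with a line at each group's mean. ENSSSCG00000035617 is high in MI hearts on day 7 and in naive hearts on day 28, whereas ANPEP, GFPT2, UAP1, ZFP36L2 and CXCL2 are highest in the 2 MI hearts of day 28.

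Which arm held more calls depended on the test: edgeR and DESeq2 called more genes in the MI hearts, and limma's voom with sample weights more in the naive hearts. Between day 7 and day 28, 267 genes (1.74%) changed in the MI hearts, 201 higher (1.31%) and 66 lower (0.43%), and none passed in the naive hearts, in which 1103 (7.18%) had an unadjusted p under 0.05, 734 higher (4.78%) and 369 lower (2.4%) (edgeR). In the MI hearts 3530 genes (23%) had such a p, 1997 higher (13%) and 1533 lower (9.98%). Within days, no gene passed between MI and naive hearts on day 7, where 1905 (12.4%) had an unadjusted p under 0.05, 1225 higher (7.98%) and 680 lower (4.43%). On day 28, 1053 genes (6.86%) passed, 687 higher (4.47%) and 366 lower (2.38%) in the MI hearts, and 4144 (27%) had an unadjusted p under 0.05, 2314 higher (15.1%) and 1830 lower (11.9%). DESeq2 called 1376 genes in the MI and 52 in the naive hearts. Voom called 100 in the MI and 433 in the naive hearts, with 2063 and 3208 genes at an unadjusted p under 0.05. The following medians describe genes chosen for their MI change and test nothing. The 201 genes that rose had a median MI change of 2.39 and a median naive change of -0.13, and the 66 that fell medians of -1.20 and 0.01. These calls depended on the MI day 7 libraries: leaving out replicate 1 or replicate 2 brought the MI count to 0, with 2755 and 2569 genes still at an unadjusted p under 0.05, and leaving out replicate 3 brought it to 63. Leaving out MI day 28 replicate 1 or 2 raised it to 917 or 562, of which 154 and 138 were among the 267. All statements below that a gene rose or fell in the MI hearts rest on the fit with all libraries.

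Among the 2924 genes at an unadjusted p under 0.05 in the interaction, the arms ran in opposite directions in 2629 (89.9%), against 55.4% of all genes tested. The MI change was the larger one in 90.3% of those with a higher interaction and in 77.0% of those with a lower one. Over all genes tested it was the larger one in 66.8%. The lower genes had a median naive change of 0.31 beside a median MI change of -0.69, and the higher genes medians of -0.43 and 1.57. Membership was set by the same libraries, and the MI arm rests on fewer of them, so these shares describe the genes and test nothing.

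**Figure D2:**
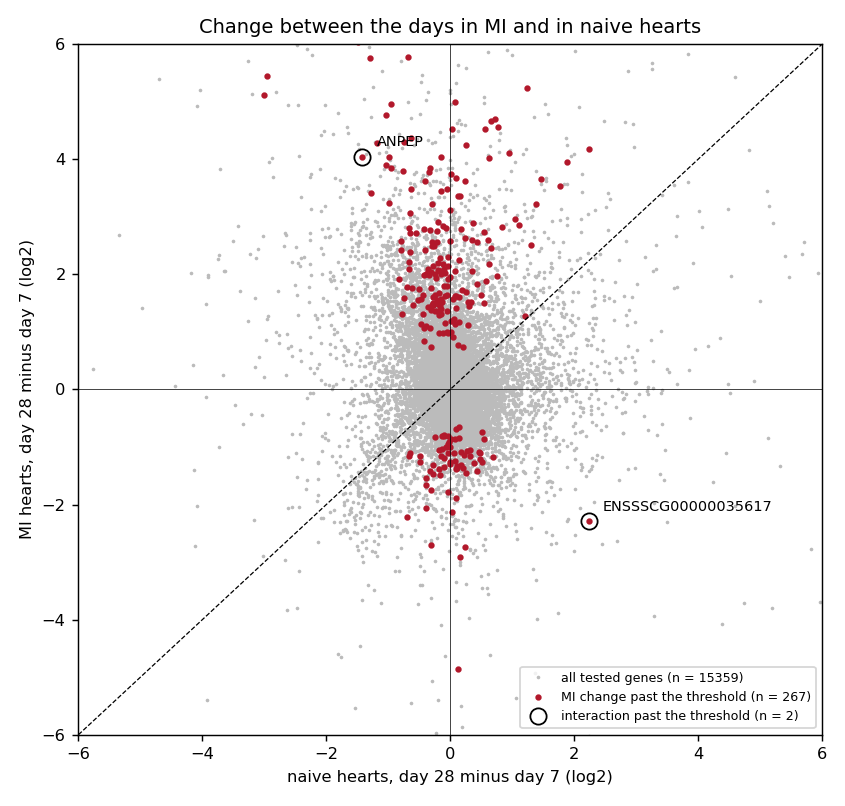
Log2 change between day 7 and day 28 in naive hearts (x axis) and in MI hearts (y axis), 1 point per gene; 97 genes lie beyond the axis limit of 6. The 267 genes whose MI change passed the threshold (red) spread vertically around a naive change of 0, and the 2 interaction calls (circles) lie on opposite sides of the dashed line of equal change.

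The 10 higher genes with the smallest interaction p at a mean of at least 5 CPM were GFPT2, NPC2, GPC3, PLAC9, STK17A, ARID5A, CSTB, TNFRSF1A, ITGB4 and SLIT2. None passed the interaction test (edgeR adjusted p 0.0532 to 0.0766), and all 10 rose in the MI hearts, beside 1.31% of all genes. The interaction contains the MI change from the same libraries, so these calls follow largely from the choice of genes. GFPT2, which catalyses the rate-limiting step of the hexosamine pathway that feeds protein glycosylation and hyaluronan synthesis, had the steepest course. It held 255 and 105 CPM in the MI day 28 hearts, 9.42, 7.88 and 4.06 CPM in the naive day 28 hearts, 14.4, 7.94 and 5.08 CPM in the MI day 7 hearts and 8.92, 12.6 and 14.5 CPM in the naive day 7 hearts. Only the MI day 28 hearts stood out, and the other groups overlapped. Its MI change was 4.30 (edgeR adjusted p = 0.0257), its naive change -0.75 (adjusted p = 0.822), and its interaction 5.05 ± 0.86 (adjusted p = 0.0532). UAP1, which makes the end product of the same pathway, UDP-N-acetylglucosamine, was named after its values were seen: it held 63.9 and 39.2 CPM in the MI day 28 hearts and 14.1 to 23.1 CPM in the other 9, with an MI change of 1.56 (adjusted p = 0.0257).

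NPC2, a carrier of cholesterol out of lysosomes, held 51.6 and 115 CPM in the MI day 28 hearts and 24.2 to 37.3 CPM in all others. CSTB, an inhibitor of lysosomal cathepsins, was at 81.9 and 89.7 CPM against 21.3 to 31.1 CPM elsewhere. GPC3, a heparan sulfate proteoglycan of the cell surface, stood at 62.3 and 63.5 CPM in the same hearts and at 16.2 to 37 CPM elsewhere. ARID5A, an RNA-binding protein that stabilises inflammatory transcripts, was at 33.4 and 41.0 CPM against 5.98 to 16.0 CPM. TNFRSF1A, the main receptor for tumor necrosis factor, had the smallest interaction of the 10, 1.05, with 50.3 and 70.8 CPM against 34.5 to 48.4 CPM. SLIT2, a secreted guidance ligand, differed between the pair, 6.15 and 25.9 CPM, against 1.47 to 3.76 CPM. In each of these 6 genes, chosen by interaction p, both MI day 28 libraries lay above the other 9. The share of all genes with that order was not counted. For the MI libraries alone, those of the 2 days did not overlap, in either direction, in 32.8% of all genes tested. Among genes with a higher interaction at an unadjusted p under 0.05 that share was 61.4%.

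The 10 lower genes chosen by the same rule were MYO18B, ENTPD6, ZNF827, LRRFIP2, MYO18A, PPFIA4, NEBL, RUNX1T1, TRMT9B and ZNF512, with edgeR adjusted p of 0.0532 to 0.0844 in the interaction. Of these, 7 fell in the MI hearts, and NEBL, RUNX1T1 and ZNF512 did not pass there (adjusted p 0.0871, 0.112 and 0.0553). Among all genes 0.43% fell, and here too the calls follow largely from the choice by interaction p. MYO18B, an unconventional myosin required for sarcomere assembly, held 211, 236 and 181 CPM in the MI day 7 hearts, 155, 120 and 126 CPM in the naive day 7 hearts, 160, 201 and 191 CPM in the naive day 28 hearts and 89.5 and 107 CPM in the MI day 28 hearts. On day 7 all MI values lay above all naive ones, and on day 28 all lay below. Its relative MYO18A had the same order of groups, with 281, 309 and 290 CPM against 217, 179 and 199 CPM on day 7 and 148 and 174 CPM against 249, 293 and 325 CPM on day 28. NEBL, the cardiac thin-filament protein nebulette, was nearly level in the MI day 28 hearts (1487 and 1368 CPM) and the naive day 7 hearts (1329 to 1458 CPM), and higher in the MI day 7 (2017 to 2906 CPM) and naive day 28 hearts (2199 to 2482 CPM). ENTPD6, a nucleotidase of the secretory pathway, did not cross: it held 34.5 to 54.8 CPM in the MI and 42.7 to 46.4 CPM in the naive hearts of day 7, then 18.5 and 20.3 CPM in MI and 53.7 to 79.9 CPM in naive hearts of day 28. The interaction of MYO18B was -1.55 ± 0.26, of MYO18A -1.41 ± 0.25 and of NEBL -1.49 ± 0.30 on the log2 scale. A crossing is common: the MI minus naive difference changed sign between the days in 47.0% of all genes tested. Among genes with a lower interaction at an unadjusted p under 0.05 that share was 83.3%. The share of genes whose libraries overlapped on neither day was not counted.

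Among regulators of growth, CDK6 also crossed. Its list held 24 G1 cyclins, kinases and inhibitors. Of these, 16 had an interaction above 0 and 8 below, with a median of 0.24. At an unadjusted p under 0.05, 3 were higher and 3 lower (9.71% and 9.33% of all genes). In the MI hearts 2 rose, GADD45B and GADD45G, and 1 fell, RBL1 (1.31% and 0.43% of all genes). CDK6, the kinase that with D-type cyclins opens the cell cycle, held 30.8, 29.6 and 17.8 CPM in MI and 15.7, 12.7 and 9.91 CPM in naive hearts on day 7, and 9.59 and 9.34 CPM in MI against 26.7, 27.7 and 25.8 CPM in naive hearts on day 28. Neither day overlapped, and the interaction of -2.53 ± 0.55 did not pass (edgeR adjusted p = 0.0844). TEAD1, the DNA-binding partner of the Hippo effector YAP, held 23.0 and 21.1 CPM in the MI day 28 hearts and 35.6 to 69.8 CPM elsewhere, with an interaction of -2.01 (adjusted p = 0.0993). FGF16, a growth factor secreted by cardiomyocytes, fell in the MI hearts by 2.91 (adjusted p = 0.0257), to 0.218 and 0.559 CPM from 2.94, 2.86 and 2.98 CPM, while the 3 naive day 28 hearts held 3.55 to 3.76 CPM. SORL1, a sorting receptor of endosomes named after its values were seen, fell by 1.88 (adjusted p = 0.0257), to 10.3 and 20.5 CPM from 48.7 to 64.6 CPM.

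Among 32 immediate early and mRNA decay genes, 9 rose in the MI hearts and 14 had a higher interaction at an unadjusted p under 0.05 (1 lower), beside the 1.31% and 9.71% of all genes given above. The list's median interaction was 1.21, against -0.05 over all genes tested, from a median MI change of 1.17 and a median naive change of 0.22. The 9 were ZFP36L2, ZFP36, BTG2, FOS, JUND, DUSP1, KLF2, KLF4 and MAFF. ZFP36L2, which destabilises transcripts with AU-rich elements, held 309 and 336 CPM in the MI day 28 hearts and 98.4 to 181 CPM elsewhere. BTG2, an antiproliferative gene, was at 229 and 274 CPM against 38.6 to 93.4 CPM, and DUSP1, a phosphatase that ends MAP kinase signals, at 193 and 235 CPM against 34.6 to 83.0 CPM. FOS, a subunit of the AP-1 factor, held 137 and 187 CPM in the MI day 28 hearts. Elsewhere it held 2 to 15.8 CPM, other than 32.8 CPM in naive day 28 replicate 3. MAFF was high in 1 heart only, 168 CPM in MI day 28 replicate 1 and 9.51 CPM in replicate 2, and without replicate 1 its MI change was -0.08. The list's mean level was 6.0 and 5.37 log2 CPM in the MI day 28 hearts and 4.02 to 4.67 in the other 9. Its median interaction was 0.68 without MI day 28 replicate 1 and 1.36 without replicate 2.

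The promoters of 2 of these 9 genes, DUSP1 and JUND, held repeated CRE cores, the letters bound by CREB and ATF factors, and are printed with those of ANPEP, the interaction call with a place in the annotation, and UAP1. The windows are the 200 bases before each annotated start, 5′ to 3′ on the gene's strand, read from the Sscrofa11.1 genome with RefSeq genes (release 106), and capitals mark TGACG on either strand, with overlapping matches counted apart. The genes lie at chr7:55351081-55373856 (minus strand), chr4:87960056-87994032 (minus), chr16:51457924-51461095 (plus) and chr2:59530991-59532846 (plus), and their windows at chr7:55373857-55374056, chr4:87994033-87994232, chr16:51457724-51457923 and chr2:59530791-59530990.
ANPEP: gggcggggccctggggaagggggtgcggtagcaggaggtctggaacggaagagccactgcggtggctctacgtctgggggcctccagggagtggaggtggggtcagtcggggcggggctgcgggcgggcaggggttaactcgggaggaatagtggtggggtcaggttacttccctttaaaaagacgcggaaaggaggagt
UAP1: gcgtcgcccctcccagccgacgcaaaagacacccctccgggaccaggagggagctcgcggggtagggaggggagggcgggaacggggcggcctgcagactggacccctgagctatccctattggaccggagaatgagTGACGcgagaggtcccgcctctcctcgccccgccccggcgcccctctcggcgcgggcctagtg
DUSP1: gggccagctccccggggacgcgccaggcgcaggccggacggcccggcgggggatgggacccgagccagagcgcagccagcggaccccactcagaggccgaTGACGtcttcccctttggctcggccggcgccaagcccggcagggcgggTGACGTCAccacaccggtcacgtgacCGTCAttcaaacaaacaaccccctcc
JUND: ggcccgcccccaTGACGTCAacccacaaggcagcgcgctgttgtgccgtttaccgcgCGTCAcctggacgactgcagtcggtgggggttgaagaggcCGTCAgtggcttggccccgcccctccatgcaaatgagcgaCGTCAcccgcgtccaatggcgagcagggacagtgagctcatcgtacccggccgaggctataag
The ANPEP window held none of the 6 motifs searched, UAP1 held 1 CRE core and 1 CCAAT box, DUSP1 held 4 CRE cores and 1 TTTGAA, and JUND held 5 CRE cores and 1 CCAAT box. A CRE core was found in 12 of 31 promoters of the immediate early list (38.7%), in 3 of the 9 that rose, in 14.6% of 164 promoters of genes that rose in MI hearts, and in 19.3% of all 12685 promoters read. TGANTCA, the AP-1 motif, was in 3.05% of the 164 and 3.35% of all, and CCAAT in 31.1% and 27.8%. The CArG box of serum response factor was in 2 of the 164 (1.22%) and 0.907% of all, the cell-cycle motif TTTGAA in 9.76% and 7.79%, and TATAAA in 5.49% and 5.47%. In the 31 promoters of the immediate early list the AP-1 motif was in 0% and CCAAT in 35.5%. There the CArG box was in 6.45%, TTTGAA in 9.68% and TATAAA in 16.1%.

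Inflammatory mediators had interactions mostly above 0, with few calls. Of 25 cytokine, chemokine and prostaglandin genes 24 lay above 0, 14 had a higher interaction at an unadjusted p under 0.05, and 2 rose in the MI hearts, CXCL2 and PTGS2, beside 9.71% and 1.31% of all genes. The median interaction was 2.53, and 1.15 without MI day 28 replicate 2. CXCL2, a neutrophil-attracting chemokine, held 55.1 and 55.8 CPM in the MI day 28 hearts, 4.66, 4.26 and 5.05 CPM in naive day 28, 6.35, 6.63 and 23.8 CPM in MI day 7 and 3.00, 2.82 and 3.23 CPM in naive day 7 hearts. MI lay above naive on both days, and the highest day 7 value was in MI replicate 3, so that the interaction was 1.55 and did not pass (edgeR adjusted p = 0.244). PTGS2, the inducible cyclooxygenase, stood at 4.51 and 5.43 CPM against 0.139 to 0.745 CPM elsewhere. OSM, a cytokine of the interleukin 6 family, was at 1.48 and 2.39 CPM against 0.0169 to 0.324 CPM (MI change 3.44, adjusted p = 0.0535). Its receptor OSMR was at 41.3 and 37.7 CPM in the MI day 28 hearts and 7.15 to 25.3 CPM elsewhere. SOCS3, a feedback inhibitor of that pathway, rose in the MI hearts, to 80.9 and 42.9 CPM from 7.58, 6.87 and 12.1 CPM. Of the 16 genes of the gp130 and STAT3 axis it was the only one to pass, and the axis had a median interaction of 1.19, with 1.12 and 1.14 when either MI day 28 heart was left out. Among 10 leukocyte adhesion molecules, all above 0, 1 rose in the MI hearts: ICAM1, at 41.3 and 33.8 CPM against 9.04 to 26.3 CPM. The adhesion list's median interaction was 2.09, 2.97 without MI day 28 replicate 1 and 0.30 without replicate 2, and its level in replicate 1, 3.54 log2 CPM, lay within the 3.00 to 4.20 of the other 9 hearts.

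General macrophage and lymphocyte markers were high in 1 of the 2 MI day 28 hearts, and genes of lipid and scar macrophages in both. All 19 macrophage and monocyte markers had an interaction above 0, 15 of them at an unadjusted p under 0.05 (9.71% of all genes higher), with a median of 2.89, and none passed in the MI change. Averaged over the list, the level reached 6.59 log2 CPM in MI day 28 replicate 2, 3.33 in replicate 1, and 1.64 to 4.07 in the other 9 hearts. Without replicate 2 the median was 0.53, and without replicate 1 it was 3.81. The naive day 28 replicate 3 was lowest, at 1.64, against 3.59 and 3.18 in the other naive day 28 hearts. CD68, a lysosomal macrophage protein, held 98.3 CPM in replicate 2 and 7.37 CPM in replicate 1, within the 1.76 to 9.78 CPM of all others, whereas CD14, the coreceptor for bacterial lipopolysaccharide, held 22.3 CPM in replicate 1 and 60.0 CPM in replicate 2, both above the 4.30 to 15.5 CPM of the rest. The 16 lipid and scar macrophage genes averaged 4.87 and 5.63 log2 CPM in replicates 1 and 2, both above the 2.97 to 4.34 of the other 9 hearts, and their median interaction of 1.83 was 2.26 and 1.35 without replicates 1 and 2. The 8 neutrophil markers averaged -0.77 and 0.99 log2 CPM, above all others except MI day 7 replicate 3, at 1.04. LGALS3 (galectin 3) rose in the MI hearts and was also high in both, at 16.3 and 54.5 CPM against 2.42 to 4.77 CPM. TREM2, a lipid receptor of scar macrophages, was called in the MI change at 1.83 and 14.7 CPM against 0.271 to 1.53 CPM, and its MI change was 0.82 without the set of low ENSSSCG00000035520 (adjusted p = 0.558). JCHAIN, the joining chain of secreted antibodies, was called from 67.6 CPM in replicate 2, with 2.63 CPM in replicate 1 and 1.13 to 4.13 CPM elsewhere. Without replicate 2 the MI changes were 0.92 for TREM2, 0.82 for JCHAIN and 2.37 for LGALS3, none of which passed (edgeR adjusted p 0.457, 0.539 and 0.148). None of the 6 macrophage or 5 lymphocyte defining markers was at 0 in all 11 libraries, and their summed levels in the MI day 28 hearts ran from 245 to 2798 CPM and from 11 to 152 CPM. In the other groups the macrophage sum was 192 to 367 CPM (MI day 7), 53.6 to 300 CPM (naive day 28) and 330 to 355 CPM (naive day 7). The part of immune cell content in the interaction was not tested.

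Adipocyte and nerve genes, and some smooth muscle genes, were higher in the other MI day 28 heart, replicate 1. Of 11 adipocyte and lipid droplet genes, 4 rose in the MI hearts, beside 1.31% of all genes: PPARG, CIDEA, CIDEC and ADIPOQ. In the interaction 5 of the 11 were higher at an unadjusted p under 0.05 (9.71% of all genes). ADIPOQ, the adipocyte hormone adiponectin, held 116 CPM in replicate 1 and 0.0339 CPM in replicate 2, and CIDEA 27.0 and 0.948 CPM, against 0.198 to 0.881 CPM elsewhere. PPARG, the master regulator of fat cells, was the exception: it held 10.1 and 9.11 CPM in the pair and 3.15 to 7.96 CPM elsewhere. The list's median interaction was 2.01, and 0.20 without replicate 1. LMOD1, a smooth muscle actin nucleator, held 55.8 and 8.31 CPM against 1.71 to 6.58 CPM, and the summed level of the smooth muscle markers ACTA2, MYH11 and TAGLN, the last at no more than 1.95 CPM, was 855 CPM in replicate 1, 213 CPM in replicate 2 and 109 to 240 CPM in the others. The whole list of 16 smooth muscle and pericyte genes had a median interaction of -0.01, with 8 above and 8 below 0, of which 4 were higher and 2 lower at an unadjusted p under 0.05 (9.71% and 9.33% of all genes). ERBB3, the neuregulin receptor of Schwann cells, rose in the MI hearts with 29.6 CPM in replicate 1, while replicate 2 and naive day 28 replicate 2 both held 6.19 CPM. Nerve and Schwann cell markers (9 genes) had a median interaction of 2.37, and of 0.72 without replicate 1. Without replicate 1 the MI changes were 1.38 for ADIPOQ, 0.81 for CIDEA, 1.16 for CIDEC, 0.99 for LMOD1 and 1.86 for ERBB3, none of which passed (edgeR adjusted p 0.127 to 0.844). Whether these levels reflect fat, vessels or nerves in the sampled piece was not tested.

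Scar matrix gave no common answer from the pair. Of 19 collagens 15 had an interaction above 0, 1 of them at an unadjusted p under 0.05 (9.71% of all genes), and the median was 0.78, 1.51 without MI day 28 replicate 1 and -0.43 without replicate 2. COL1A1, the main collagen of scar, held 6435 CPM in replicate 2 and 400 CPM in replicate 1, with 314 to 2026 CPM in the other hearts, and COL3A1 8482 and 471 CPM. The interaction was 2.68 ± 1.17 for COL1A1 and 2.30 ± 1.39 for POSTN (periostin), neither past the threshold (edgeR adjusted p 0.230 and 0.376), and both were below 0 without replicate 2. The fibroblast marker PDGFRA stood at 10.4 and 64.4 CPM in the pair and 14.5 to 37.3 CPM elsewhere. As a list, enzymes that act on matrix were more alike in replicates 1 and 2, at 5.02 and 5.67 log2 CPM beside 5.60 and 7.53 for collagens. Single members still differed within the pair. Of 29 proteases, inhibitors and crosslinking enzymes, 13 had a higher interaction at an unadjusted p under 0.05 (2 lower). In the MI hearts 4 rose, PLAUR, ADAMTS4, MMP14 and MMP2. Among all genes 9.71% were higher, 9.33% lower and 1.31% had risen. PLAUR, the urokinase receptor, held 8.61 and 13.9 CPM against 2.14 to 5.41 CPM. MMP2, a gelatinase, held 440 and 996 CPM against 146 to 305 CPM, and MMP14, its activator, 151 and 454 CPM against 56.9 to 116 CPM. Over the 19 alternative fits the MI change ran from 1.12 to 2.45 for MMP2 and from 0.72 to 2.39 for MMP14. ADAMTS4, which cleaves proteoglycans, was called from replicate 1 alone, 125 CPM against 4.71 CPM in replicate 2 and 1.41 to 4.72 CPM elsewhere, and without replicate 1 its MI change was 0.29 (edgeR adjusted p = 0.838). The fibroblast defining markers summed to 543 and 1434 CPM in the MI day 28 hearts and 288 to 925 CPM in the others, and their part was not tested.

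Muscle genes ran the other way, and more evenly in the pair. All 21 calcium handling and excitation genes had an interaction below 0, 9 of them at an unadjusted p under 0.05 beside 9.33% of all genes, and none passed the adjusted test. The median interaction was -0.77, from an MI change of -0.74 and a naive change of 0.14, and it was -1.19 and -0.51 without MI day 28 replicates 1 and 2. The list's mean level was 7.04 and 6.64 log2 CPM in the MI day 28 hearts and 7.35 to 7.69 in the other 9, which overlapped each other. CASQ2, the calcium store of the sarcoplasmic reticulum, held 161 and 152 CPM against 377 to 561 CPM (interaction -1.70 ± 0.59, edgeR adjusted p = 0.154). CAMK2D, the main cardiac calmodulin kinase, crossed: it held 401, 391 and 442 CPM in MI and 256, 241 and 248 CPM in naive hearts on day 7, and 253 and 174 CPM in MI against 364, 435 and 299 CPM in naive hearts on day 28. Of 28 sarcomere genes 25 lay below 0, with a median of -0.89 and 7 at an unadjusted p under 0.05 (9.33% of all genes). ACTC1, cardiac actin, was the member that fell in the MI hearts, to 2646 and 5246 CPM from 13834, 11864 and 8684 CPM, and naive day 28 hearts held 9411 to 13135 CPM. MYH7, the slow myosin heavy chain, had an interaction of -0.97 and ACTA1, skeletal actin, of -0.79, neither past the threshold (adjusted p 0.269 and 0.596). The 5 defining cardiomyocyte markers summed to 27855 and 35390 CPM in the MI day 28 hearts, below the 41214 to 65645 CPM of all other hearts, with TNNI3 at 0. MYH7 makes up most of that sum. The part of this lower marker sum in these differences was not tested.

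Other lists held single genes that were high in both MI day 28 hearts and rose in the MI hearts. LYVE1, a hyaluronan receptor of lymphatic endothelium and resident macrophages, held 41.9 and 61.5 CPM against 7.11 to 18.9 CPM elsewhere. It was the 1 gene to pass among 19 endothelial markers, where 1.31% of all genes rose. SOD3, the extracellular superoxide dismutase, held 70.1 and 30.2 CPM against 2.42 to 10.1 CPM. PMP22, a myelin protein that other cells make too, held 57.2 and 64.3 CPM against 21.7 to 43.7 CPM. In the TGF beta list of 28 genes the 2 that rose (1.31% of all genes) were receptors. ACVRL1 held 34.0 and 54.9 CPM against 16.4 to 26.6 CPM, and TGFBR3 159 and 73.6 CPM against 32.1 to 65.2 CPM. The list's median interaction was 0.45, with 9 genes higher at an unadjusted p under 0.05 (9.71% of all genes). GADD45G, a stress-induced growth arrest gene, rose by 1.27 in the MI hearts (edgeR adjusted p = 0.0373), yet its interaction was 0.07, since the naive day 28 hearts, at 63.3 to 107 CPM, also lay above the naive day 7 hearts, at 26.5 to 44.2 CPM.

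**Figure D3:**
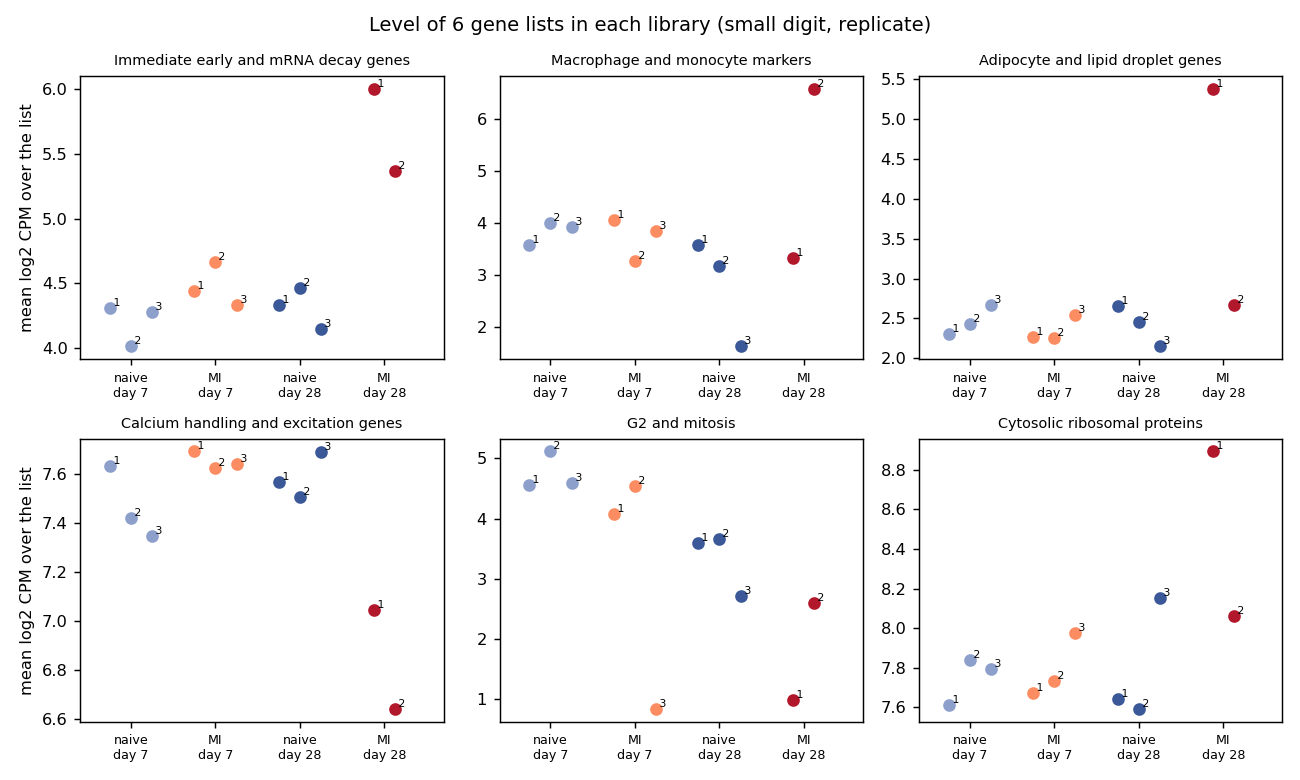
Mean log2 CPM of 6 gene lists in each of the 11 libraries, with the replicate number beside each point. Immediate early genes are high and calcium handling genes low in both MI day 28 hearts, while macrophage markers are high in replicate 2 and adipocyte genes in replicate 1; the G2 and mitosis list is at 0.84 in MI day 7 replicate 3.

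Of 22 fetal, stress and cardiac regulator genes, 10 had a lower and 2 a higher interaction at an unadjusted p under 0.05 (9.33% and 9.71% of all genes), with a median of -0.74. The natriuretic peptides NPPA and NPPB, the classical stress markers of cardiac muscle, varied within every group: NPPA ran from 80.8 to 1398 CPM in the MI day 7 hearts, from 24.3 to 313 CPM in naive day 7, from 31.9 to 375 CPM in naive day 28, and was 1.52 and 70.6 CPM in MI day 28 hearts. Its interaction of -4.28 had a standard error of 2.35. TNNI1, the fetal troponin I, was at 10.1 CPM in naive day 28 replicate 2 and at 248 to 958 CPM in the other 10 hearts.

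Lists of energy metabolism had medians nearer 0. The 33 nuclear complex I subunits had a median interaction of -0.20 and the 27 fatty acid genes -0.41, with 0 and 5 genes lower at an unadjusted p under 0.05 (9.33% of all genes). NDUFS1, the largest core subunit of complex I, held 183 and 180 CPM in the MI day 28 hearts and 275 to 499 CPM elsewhere, but MI was below naive on day 7 as well and the interaction was -0.76 (edgeR adjusted p = 0.318). PPARGC1A, a regulator of mitochondrial biogenesis, fell in the MI hearts by 1.41 (adjusted p = 0.0420), to 104 and 81.0 CPM from 170 to 315 CPM. PFKFB3, an activator of glycolysis, rose by 2.09 (adjusted p = 0.0257), to 21.9 and 40.7 CPM from 7.11 to 7.59 CPM. All 42 cytosolic ribosomal protein genes had an interaction above 0, 7 of them (of all genes 9.71%) at an unadjusted p under 0.05, with a median of 0.62. Their mean level was highest in MI day 28 replicate 1, at 8.89 log2 CPM, while replicate 2, at 8.06, lay below the 8.15 of naive day 28 replicate 3, and the median was 0.19 without replicate 1.

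Cell cycle genes had medians below 0 in both arms. For the 34 genes of G2 and mitosis and the 34 of S phase, the medians of the former were -1.83 in the MI and -1.45 in the naive hearts, and those of the latter -0.83 and -0.94, with no gene of either list called in an arm of the fit with all libraries. Neither list had a gene at an unadjusted p under 0.05 in the interaction, and their median interactions were -0.41 and 0.10. The G2 and mitosis median was 0.17 without MI day 28 replicate 1, -1.51 without replicate 2 and -0.91 without MI day 7 replicate 3, and that of S phase was 0.46, -0.15 and -0.19. Without the set of low ENSSSCG00000035520, MI day 28 replicate 1 was the only MI heart of that day. The G2 and mitosis and S phase medians were then -3.54 and -1.54 in the MI hearts, and -1.83 and -0.65 in the interaction. CCNB1, the mitotic cyclin, held 1.97 and 4.72 CPM in the MI day 28 hearts, 5.76 to 21.5 CPM in naive day 28, 19.8, 34.9 and 1.37 CPM in MI day 7 and 36.0 to 66.9 CPM in naive day 7 hearts. MKI67, which labels dividing cells, stood at 19.8 and 145 CPM in the pair, against 11.4 to 49.7 CPM in naive day 28 hearts. On day 7 MKI67 was at 138, 116 and 23.5 CPM in MI and at 50.5 to 173 CPM in naive hearts. The interactions of CCNB1 and MKI67 were -0.81 ± 1.33 and 1.38 ± 1.19. CCND2 and MYC, a D-type cyclin and a growth regulator, had interactions of -0.71 ± 0.60 and 0.59 ± 0.58, and none of these 4 passed (edgeR adjusted p 0.544 to 0.775). The 21 interferon response genes likewise had medians of -1.21 in the MI and -1.12 in the naive hearts, and no gene called in either. The naive median rested on naive day 7 replicate 3, where the list averaged 5.93 log2 CPM against 4.30 and 3.81 in the other naive day 7 hearts: without it that median was -0.15 and the interaction -0.70, against 0.18 with it.

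**Figure D4:**
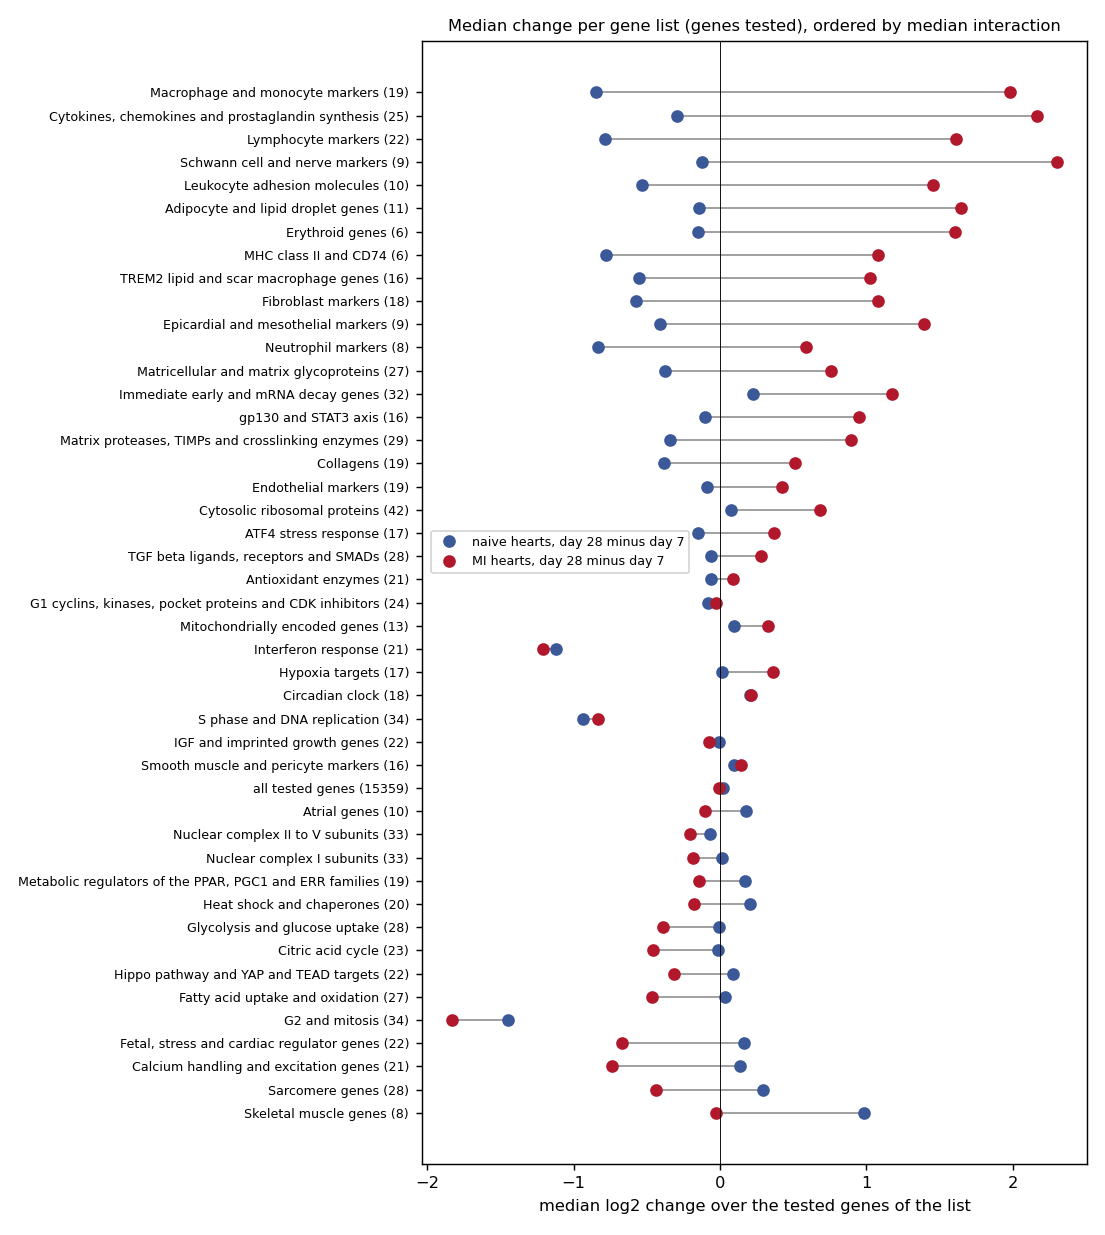
Median log2 change from day 7 to day 28 over the tested genes of each of 44 lists and over all genes, in naive hearts (blue) and MI hearts (red), ordered by median interaction. Macrophage markers and cytokines are farthest apart, with medians of 2.89 and 2.53 in the interaction, and the cell cycle and interferon lists lie left of 0 in both arms.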

How the data were processed

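The deposited table held 1 column of whole-number read counts per pig and 25880 Ensembl genes; per the submitters' processing notes the tools were Trim Galore, STAR 2.5.2, HTSeq 0.6.1 and DESeq2 on Sscrofa11.1, and strand setting and annotation release were not given in the sources used here. Symbols came from the table (17947) or, by ID, from the reference (807), and 7126 genes had none; where IDs shared a symbol, the one with the most counts was used. Genes were kept by edgeR's filterByExpr over 8 groups (15359), scaled by TMM and fitted with edgeR 4.0.16 (robust quasi-likelihood, 13 residual degrees of freedom, biological coefficient of variation 0.37), with Benjamini-Hochberg adjustment over all 15359 and a threshold of 0.05, two-sided. All 21 libraries shared the spread. The sources do not say whether pigs of a group came from separate litters, so p-values measure the spread between these pigs. Same-group pairs differed by a chi-square of 48.5 to 923 per degree of freedom, so that each was counted as a separate library.

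List levels are means of log2 CPM with a prior count of 2; lists were described by counts and medians, with no set test. On counts simulated for the interaction (15165 genes) the fit recovered 57 of 100 genes changed by 2 and 92 of 100 changed by 4 on the log2 scale, with 9 false among 158 calls. There every gene had the same mean in all groups, save the changed genes in the MI day 28 hearts. Genes with the lowest counts were not among those changed. Libraries were drawn independently, without discordant hearts or a set of low ENSSSCG00000035520, so these rates need not hold for the real libraries. Alternatives used DESeq2 1.42.0 and limma 3.58.1. The members and the 44 lists were chosen with earlier results of these data known. The text names, per list, called members or the one with the smallest p, the 10 higher and 10 lower genes with the smallest interaction p at a mean of 5 CPM or more, a fixed set of cardiac, cycle and marker genes, and, added after values were seen, the 2 interaction calls and genes called in the MI change. Of 13646 symbols tested, 12685 had 1 RefSeq gene and a promoter.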

Additional observations from a re-analysis of the deposited data

Results flagged for a closer look

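The infarct effect differed between the days for 2 genes by the interaction test. ENSSSCG00000035617 had an interaction of -4.52 on the log2 scale, higher in MI than in naive hearts on day 7 (difference 2.18) and lower on day 28 (difference -2.34). ANPEP had an interaction of 5.47, with an MI minus naive difference of -1.19 on day 7 and 4.27 on day 28. Both values come from edgeR's test over all genes, with adjusted p of 0.00767 and 0.0372.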

How the results depend on the processing

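No paired analysis was possible because the labels number the pigs, not the replicates. The interaction count of 2 genes became 717 with DESeq2's test (520 higher, 197 lower), 35 with voom (28 and 7), 135 with the 11 libraries only (70 and 65), 367 without the set of low ENSSSCG00000035520 (213 and 154), 1 with a term for that set (0 and 1) and 187 at an adjusted p under 0.10, a limit chosen after seeing the data. Leaving out 1 library gave 1 to 528 calls (0 to 495 higher, 1 to 78 lower). The MI count of 267 became 1376 with DESeq2 (1009 and 367), 100 with voom (95 and 5), 412 with 11 libraries (240 and 172), 166 with the term (126 and 40), 1070 without that set (636 and 434) and 180 with no filter (36 lower), and 0 to 917 without 1 library (0 to 867 higher, 0 to 197 lower). The naive count of 0 became 52 with DESeq2 and 433 with voom, and 0 to 1 without 1 library; the day 7 count of MI against naive hearts, also 0 with 1905 genes at an unadjusted p under 0.05, became 270 and 2040. The cause of these moves was not tested.

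Single genes reversed as follows. Leaving out 1 library gave interactions of -0.36 to 3.65 for COL1A1, -1.45 to 2.72 for COL3A1, -1.21 to 3.51 for POSTN, -0.60 to 2.27 for MKI67, -1.49 to 2.77 for PTPRC and -1.38 to 1.24 for PDGFRA, each lowest without MI day 28 replicate 2. Without the set of low ENSSSCG00000035520 they were -0.99, -1.91, -2.05, -0.69, -1.37 and -1.03 in the same order. The range was -0.21 to 1.21 for MYC and -0.17 to 0.58 for PECAM1, lowest without MI day 28 replicate 1, as was the MI change of MAFF (-0.079 to 4.06), and -1.51 to 0.0071 for CCNB1, highest without MI day 7 replicate 2. TNNI1 stood at 0.89 with voom. The 2 MI hearts on day 28 limit the precision of every value.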
